A study of Homo sapiens with 2 samples.

Results

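The genes for SR proteins, hnRNP proteins and a set of related splicing regulators were followed through the MARIS procedure, in which cells are fixed, permeabilized, stained with antibodies and sorted before their RNA is extracted. Members were chosen by gene symbol: every symbol made of SRSF and a number, every HNRNP symbol other than pseudogenes, and TRA2A, TRA2B, SRRM1, SRRM2, SRRM4, PTBP1, PTBP2, RBFOX2, ESRP1 and ESRP2. This gave 42 genes of the 55797 listed, which fall into 20 hnRNP genes, 12 SR genes, 5 genes of SR-related proteins and 5 other regulators. The rule used no measured value. It left out 39 pseudogenes named after HNRNPA1, HNRNPA3 or HNRNPK, and it missed HNRPDL and HNRPLL, hnRNP genes that the files list under older symbols.

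Both libraries came from H1, a single established human embryonic stem cell line, which had been grown on matrigel in mTeSR medium and differentiated stepwise to the stage at which some cells express insulin. The live library was made from cells that were neither fixed nor sorted, with RNA extracted by the RNeasy protocol. The processed library was made from cells that were fixed in paraformaldehyde, permeabilized, stained with antibodies and then run through a mock sort that kept every cell, with RNA extracted by a modified RecoverAll protocol. Fixation, staining, sorting and the extraction kit therefore changed together, and their parts cannot be told apart. The question of the comparison was whether this handling alters how strongly each transcript is represented. Each condition has 1 library, so no difference below has a replicate check and no test or p-value is given.

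SR proteins carry RNA recognition motifs and a domain rich in arginine and serine. They bind exonic sequences, recruit the splicing machinery to nearby splice sites and favour the inclusion of exons. The hnRNP proteins coat nascent transcripts and often act in the opposite direction, by masking splice sites or looping out exons, and both families also work in RNA export, stability and translation. Many of these genes control their own level by splicing in an exon with an early stop codon, which sends the transcript to nonsense-mediated decay, and their mRNAs are abundant in embryonic stem cells and in most other tissues.

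Several hnRNP genes have left near-identical intronless copies elsewhere in the genome, and a read of 80 bases, the read length used here, cannot always be assigned between them. Stretches of 80 bases from the coding exons of 2 of these genes are shown with a relative or pseudogene, because the highest and the lowest log2 ratio of the members belong to HNRNPCL1 and HNRNPA3. Each stretch was taken from the middle of the longest coding exon, is written 5′ to 3′ on the strand of the gene in build GRCh37, and has capitals where the pair differ. The HNRNPA3 stretch lies in exon 4 of 11 at chr2:178080772-178080851 on the plus strand, and its counterpart in the pseudogene HNRNPA3P5 lies at chr13:66362716-66362795 on the minus strand.
HNRNPA3: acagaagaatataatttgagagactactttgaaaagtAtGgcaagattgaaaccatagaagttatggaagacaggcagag
HNRNPA3P5: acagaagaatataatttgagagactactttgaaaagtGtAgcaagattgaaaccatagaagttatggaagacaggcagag
Counted from 1 at the 5′ end, the differences are A38G and G40A, with the base of HNRNPA3 first. The same HNRNPA3 stretch occurs without any difference at 2 other places in the genome.

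The second pair is HNRNPC, in exon 3 of 9 at chr14:21702193-21702272 on the minus strand, and HNRNPCL1 at chr1:12907983-12908062 on the minus strand.
HNRNPC: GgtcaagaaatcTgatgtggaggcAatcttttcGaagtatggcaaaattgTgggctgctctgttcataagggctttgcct
HNRNPCL1: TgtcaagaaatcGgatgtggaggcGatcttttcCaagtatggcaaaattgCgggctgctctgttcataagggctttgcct
This pair differs at 5 positions, G1T, T13G, A25G, G34C and T51C, and the HNRNPC stretch is found unchanged at 1 other place. That place is not HNRNPCL1, and no 80-base window of the HNRNPC transcript occurs unchanged in the HNRNPCL1 locus.

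Expression was read as FPKM, fragments scaled by the length of the transcript and by the size of the library, which is a level per length. The files give each FPKM a lower and an upper bound, printed here in parentheses, whose confidence level is not stated. These bounds describe uncertainty within 1 library and not the spread between cultures. Log2 ratios compare processed with live cells after 1 FPKM was added to each value, which shrinks the differences of weakly expressed genes. A gene was counted as expressed when either library reached an FPKM of 1, and as well expressed when either reached 10. Over the 14635 genes that reached 1 in both libraries, the median log2 ratio was -0.091, so a slightly negative ratio was the common state, and scaling the libraries by the median ratio moves ratios up by about 0.101, and by less for weakly expressed genes because of the added 1 FPKM.

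All 42 genes were expressed. Each reached an FPKM of 1 in both libraries, 39 reached 10 in both, and 26 reached 100 in live cells, as did 667 genes in all. Summed over the 42 genes, FPKM came to 7537 in live and 7036 in processed cells, or 1.48% and 1.41% of the FPKM of all genes. The bounds of a member reached, at the median, 1.93% of its FPKM to either side in live cells and 2.16% in processed cells, where HNRNPK was left out because its estimate had failed. The order of the 42 levels was nearly the same in both libraries, with a Spearman correlation of 0.985 across these genes, which share the 2 libraries and are not replicates.

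**Figure D1:**
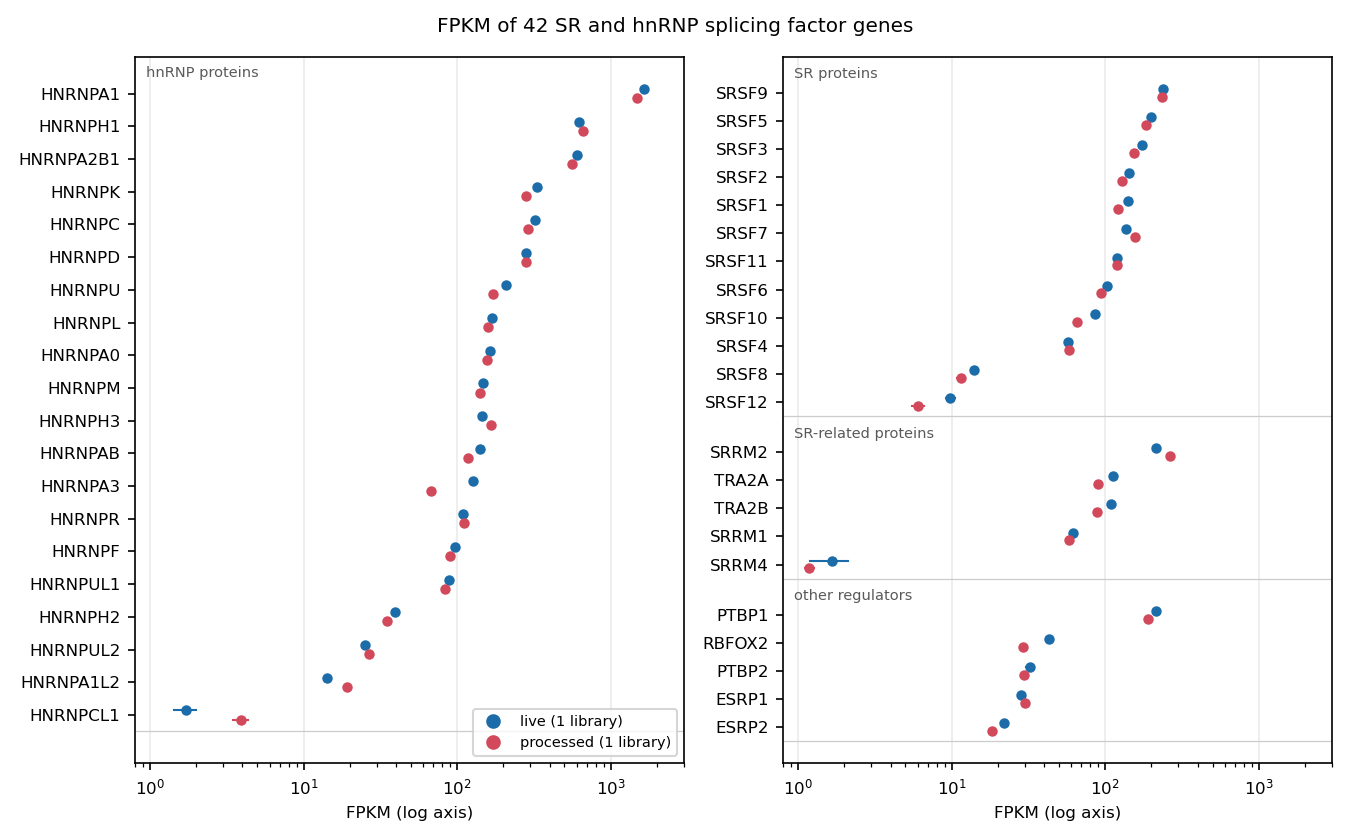
FPKM on a log axis for each of the 42 genes, grouped by family and ordered by live level, with live (blue) and processed (red) points from 1 library each and horizontal bars for the deposited bounds (no bar for HNRNPK in processed cells, whose lower bound is 0). Levels run from 1.66 for SRRM4 to 1637 for HNRNPA1 in live cells, and the points of most genes nearly coincide, with HNRNPA3 as the widest gap among genes above 100 in live cells.

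HNRNPA1, which binds splicing silencers and shuttles between nucleus and cytoplasm, had the highest level of all 42 genes, at rank 26 of all genes in live cells and rank 29 in processed cells. Its FPKM was 1637 (1628 to 1646) in live and 1484 (1475 to 1493) in processed cells, a log2 ratio of -0.14 with separate bounds. HNRNPH1, which binds runs of guanines, was higher in processed cells, at 665 FPKM (656 to 674) against 625 (617 to 633) and a log2 ratio of 0.09. HNRNPA2B1, a regulator of splicing and of RNA transport, had 603 FPKM (598 to 608) in live and 559 (555 to 564) in processed cells, a log2 ratio of -0.11. These 3 genes led the family in both libraries, and HNRNPA1, at 1.10-fold, differed most among them.

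HNRNPK, a poly-C binding protein, had 332.0 FPKM (328 to 336) in live cells. Its processed value of 280.0 FPKM carried the status FAIL and bounds from 0 to 898, so its log2 ratio of -0.25 has no usable error. HNRNPC, which binds uridine tracts and keeps cryptic exons out of mRNA, had 323 FPKM (319 to 327) in live and 289 (285 to 294) in processed cells, a log2 ratio of -0.16 with separate bounds. HNRNPK and then HNRNPC followed the 3 leading hnRNP genes in live cells. In processed cells HNRNPC stood at 289 and HNRNPD at 279 FPKM (275 to 283), and the failed estimate gives HNRNPK no certain place beside them.

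Among SR genes the highest live level was that of SRSF9, with 239 FPKM (236 to 243) in live and 233 (230 to 236) in processed cells, and its bounds overlapped at a log2 ratio of -0.04. SRSF5 had 200.0 FPKM (196 to 204) in live and 185 (181 to 189) in processed cells, a log2 ratio of -0.11. SRSF3, the smallest member of the family and a link between splicing and mRNA export, had 174 FPKM (171 to 176) in live and 154 (152 to 156) in processed cells, a log2 ratio of -0.17. The bounds of SRSF5 and of SRSF3 did not overlap between the libraries. SRSF2, which stays in the nucleus, had 142 FPKM (140 to 145) in live and 128 (126 to 130) in processed cells, a log2 ratio of -0.15. SRSF1, the founding SR protein, had 140 FPKM (138 to 142) in live and 121 (119 to 123) in processed cells, a log2 ratio of -0.21. All 5 leading SR genes were lower in the processed library, 4 of them with separate bounds. Of all expressed genes, 58.3% had a log2 ratio below 0 and 43.7% were lower by the bounds. After scaling by the median ratio SRSF9 stood at 0.06, and the other 4 ran from -0.10 for SRSF1 to -0.01 for SRSF5.

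No member passed 2-fold between the libraries on the log2 scale with the pseudocount. Of the 17326 expressed genes, 6.57% lay beyond 2-fold on the higher side in processed cells and 6.19% on the lower side, and of the 8515 well expressed genes the shares were 2.99% and 2.02%. At 1.5-fold, 1 member was higher, HNRNPCL1, and 2 were lower, HNRNPA3 and SRSF12, against 13.1% and 15.6% of all genes. Among the 39 well expressed members, 0 were past 1.5-fold on the higher side and 1 on the lower, against 7.35% and 9.24% of all well expressed genes. The median absolute log2 ratio was 0.159 over the 42 members and 0.341 over the 17326 genes. Genes at the level of many members were closer, since 1391 genes whose mean FPKM lay between 50 and 500 had a median absolute log2 ratio of 0.170. The 42 members also include genes above and below that range.

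Read by the bounds, 25 members (59.5%) were lower in processed cells, 7 (16.7%) were higher and the rest overlapped. The same held for 43.7% and 28.1% of the 17326 genes, and for 47.2% and 26.8% of the well expressed genes, against 24 and 6 of the 39 well expressed members. A log2 ratio below 0 was found for 32 members (76.2%), against 58.3% of all genes, and for 30 of 39 members against 60.8% of well expressed genes. The median log2 ratio of the members was -0.12, and for the 1391 genes with a mean FPKM between 50 and 500 it was -0.08. After scaling by the median ratio, 16 of the 42 members were lower and 14 higher by the bounds, against 35.7% and 34.8% of all expressed genes scaled alike. On that scale 24 members had a log2 ratio below 0, against 50.1% of expressed genes.

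By family, 12 of 20 hnRNP genes were lower and 5 higher by the bounds, with a median log2 ratio of -0.09, which turned to 0.01 after scaling by the median ratio. Of the 12 SR genes, 8 were lower and 1 was higher, with a median of -0.14. Of the 5 SR-related genes, 2 were lower and 1 higher, with a median of -0.28, and of the 5 other regulators 3 were lower and 0 higher, with a median of -0.17. Whether these families differ from each other was not tested.

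**Figure D2:**
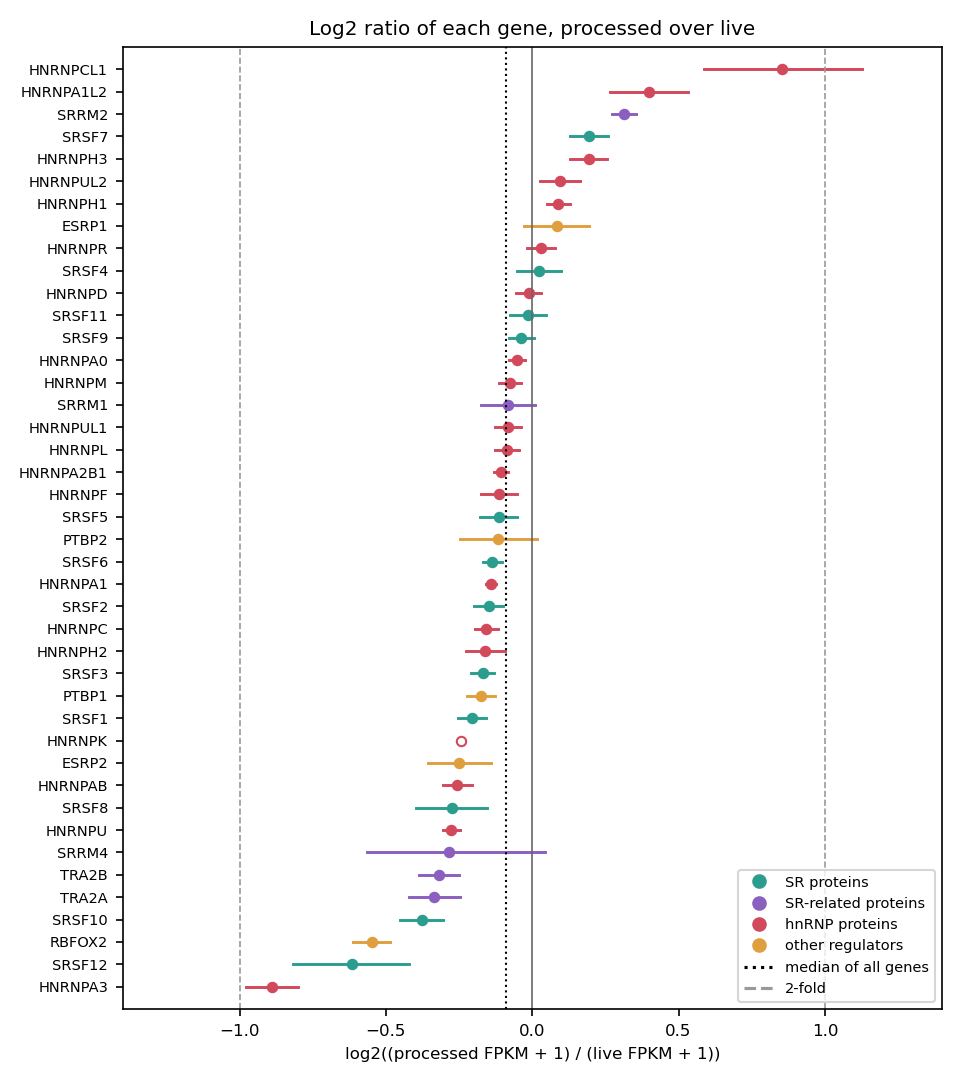
Log2 ratio of processed over live FPKM, with 1 added to each, for every member, ordered by value and coloured by family, with bars from the lowest to the highest ratio that the deposited bounds of both libraries allow (HNRNPK, open circle, is drawn without a bar). The dotted line is the median of all genes at -0.091 and the dashed lines mark 2-fold, which no member crossed, while HNRNPCL1 at 0.85 and HNRNPA3 at -0.89 stand at either end.

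**Figure D3:**
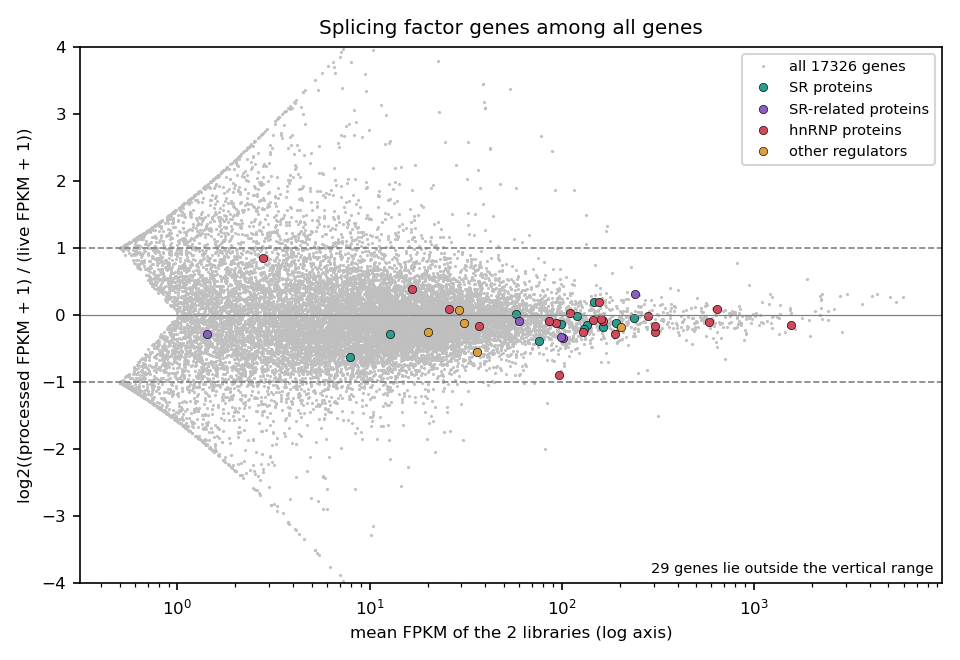
Log2 ratio of processed over live FPKM against the mean FPKM of both libraries (log axis) for 17326 genes in grey and the 42 members in colour, with dashed lines at 2-fold and 29 genes beyond the vertical range. Most members lie in the narrow part of the cloud at high FPKM, apart from the weak genes SRRM4, HNRNPCL1 and SRSF12, and HNRNPA3 stands lowest among them.

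HNRNPA3 (ENSG00000170144.13, chr2:178077291-178086111), a relative of HNRNPA1 that binds and transports RNA, had the most negative log2 ratio of any member. Its FPKM was 126 (123 to 130) in live and 67.7 (65.4 to 70.0) in processed cells, 1.86-fold lower at a log2 ratio of -0.89. The bounds lay far apart. The pseudogene HNRNPA3P5 differed in the other direction, with 62.5 FPKM (52.8 to 72.2) in live and 127 (113 to 140) in processed cells, a log2 ratio of 1.01. A copy listed as RP11-642N14.1 at chr3:75263782-75264787 held 133 FPKM (131 to 136) in live and 108 (105 to 110) in processed cells, which was more than HNRNPA3 itself in either library.

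Adding the 5 pseudogenes named after HNRNPA3 to the gene gave 202 FPKM in live and 206 in processed cells, a log2 ratio of 0.03, and the pseudogenes held 37.4% of that sum in live and 67.1% in processed cells. Adding the 8 copies of at most 2000 bases that carry its name or an exact 80-base window of it gave 359 FPKM in live and 336 in processed cells, a log2 ratio of -0.09. These sums were chosen after the values were seen, and adding FPKM of genes of unequal length weighs them by level and not by fragments. In the coding part of HNRNPA3, 858 of 1055 windows of 80 bases (81.3%) occur unchanged elsewhere in GRCh37, the highest coding share of the 42 genes. Over its whole transcript 24.0% of the 80-base windows are repeated, below HNRNPA1L2 with 39.6% and HNRNPA1 with 35.8%, and 10.5% of windows of 160 bases, the length of both reads of a pair. HNRNPA3P5 holds 149 of the 80-base windows unchanged, 2.65% of the transcript. How the fragments were divided between the gene and its copies was not tested.

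**Figure D4:**
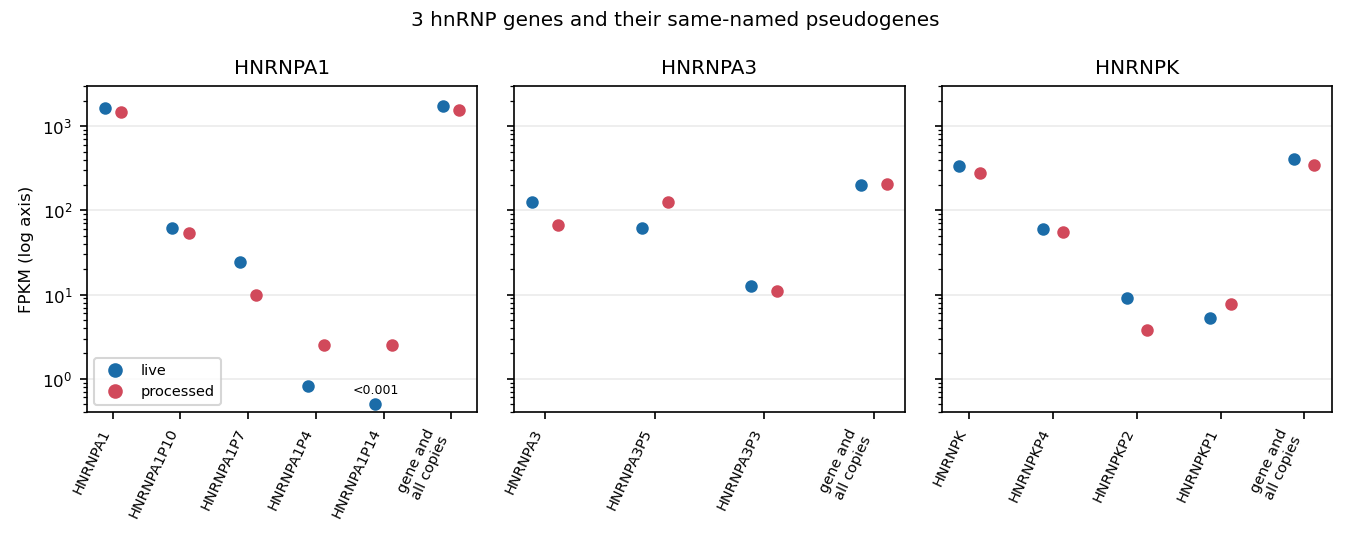
FPKM on a log axis for HNRNPA1, HNRNPA3 and HNRNPK, for their expressed same-named pseudogenes, and for the gene with all same-named pseudogenes, in live (blue) and processed (red) cells with 1 library each; the live point of HNRNPA1P14 is drawn at the lower edge. HNRNPA3 and HNRNPA3P5 exchange places between the libraries, and the gene with its 5 pseudogenes stands at 202 and 206.

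HNRNPCL1 (ENSG00000179172.7, chr1:12907261-12908578), a relative of HNRNPC, had the highest log2 ratio. Its FPKM was 1.71 (1.44 to 1.98) in live and 3.90 (3.47 to 4.32) in processed cells, 2.28-fold higher without a pseudocount and 0.85 on the log2 scale with it. Both values are low and among the least precise of the members. In its coding part 20.9% of the 80-base windows occur unchanged elsewhere. Over its whole transcript 224 windows occur at RP13-221M14.5, listed at 0.184 FPKM in live and 0.677 in processed cells. Summed with 3 short copies, HNRNPCL1 had 6.01 FPKM in live and 10.2 in processed cells, a log2 ratio of 0.68. Most of what the copies added was RP11-485G7.4, at 2.83 and 4.56 FPKM, which shares only 2 windows with HNRNPCL1. HNRNPA1L2 had 14.3 FPKM (13.5 to 15.0) in live and 19.1 (18.2 to 20.0) in processed cells, a log2 ratio of 0.40, and 33.3% of its coding windows are repeated. Summed with 23 short copies, HNRNPA1L2 had a log2 ratio of -0.12, but these copies held 91.9% of the sum in live and 88.2% in processed cells. Among them were HNRNPA1P10 at 61.5 and 53.2 FPKM and CTD-2119F7.2 at 75.0 and 69.3 FPKM, which also share windows with HNRNPA1.

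Exact 80-base repeats were found in the coding part of 12 of the 42 genes, and in over 10% of it for 7. Besides HNRNPA3, HNRNPA1L2 and HNRNPCL1 these were HNRNPA1 with 72.6% of windows, HNRNPC with 32.9%, SRSF6 with 18.3% and HNRNPL with 12.9%. For HNRNPA1 the 29 same-named pseudogenes held 5.07% of the joint FPKM in live and 4.42% in processed cells, and the sum of 1724 and 1553 FPKM gave a log2 ratio of -0.15, close to that of the gene alone. For HNRNPC a copy listed as AC019178.1 (chr2:190788062-190788942) held 159 FPKM (156 to 162) in live and 130 (128 to 133) in processed cells, and the sum with both short copies had a log2 ratio of -0.19. HNRNPU had 10 repeated coding windows, 0.417% of its coding part, yet the copy that shares them, RP11-736L22.1 of 333 bases, was listed at 34.8 FPKM in live and 77.7 in processed cells. Among the 35 genes with at most 10% of repeated coding windows, log2 ratios ran from -0.62 to 0.31 with a median absolute value of 0.160, and among the 7 others from -0.89 to 0.85 with a median absolute value of 0.157. The 2 ends of the range of ratios belong to genes with copies, of which HNRNPCL1 was also weak, at 1.71 and 3.90 FPKM. The typical difference was of the same size in both sets, and a role of the copies was not tested.

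Of the SR genes, SRSF12 and SRSF10 were the lowest in processed relative to live cells. SRSF12, a weakly expressed SR protein, had 9.82 FPKM (9.17 to 10.5) in live and 6.05 (5.50 to 6.60) in processed cells, 1.62-fold lower at a log2 ratio of -0.62. SRSF10, which acts as a repressor when it is dephosphorylated, had 86.1 FPKM (83.9 to 88.2) in live and 66.0 (64.2 to 67.8) in processed cells, 1.30-fold lower at a log2 ratio of -0.38. Neither gene has an 80-base window of its coding part elsewhere in the genome. SRSF7, another export adaptor, was the 1 SR gene higher by the bounds, at 136 FPKM (133 to 139) in live and 156 (152 to 160) in processed cells and a log2 ratio of 0.19. SRSF4 and SRSF11 overlapped between the libraries, with log2 ratios of 0.02 and -0.01. The other SR genes were SRSF6 at 103 and 94.0 FPKM and SRSF8 at 14.1 and 11.4 FPKM in live and processed cells, both lower by the bounds.

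TRA2A and TRA2B, paralogous SR-related proteins that activate exons through purine-rich enhancers, differed alike. TRA2A had 113 FPKM (110 to 117) in live and 89.4 (86.7 to 92.1) in processed cells, a log2 ratio of -0.34. TRA2B had 110 FPKM (107 to 112) in live and 87.8 (85.5 to 90.0) in processed cells, a log2 ratio of -0.32. The bounds of the paralogues overlapped within each library and were separate between the libraries.

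The SRRM genes showed no common direction. SRRM2, a very large protein that organizes nuclear speckles, had 214 FPKM (211 to 217) in live and 266 (262 to 270) in processed cells, 1.24-fold higher at a log2 ratio of 0.31. SRRM1, a coactivator that bridges SR proteins and the spliceosome, had 61.7 FPKM (60.0 to 63.4) in live and 58.2 (56.0 to 60.4) in processed cells, a log2 ratio of -0.08 with overlapping bounds. SRRM4, the neuronal and endocrine activator of microexons, was the weakest member in live cells, at 1.66 FPKM (1.20 to 2.11) against 1.18 (1.10 to 1.26) in processed cells and a log2 ratio of -0.28 with overlapping bounds.

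The polypyrimidine tract binding proteins differed widely in level within either library. PTBP1, the form of dividing and non-neuronal cells, had 214 FPKM (211 to 218) in live and 190.1 (187 to 193) in processed cells, a log2 ratio of -0.17. PTBP2, its neuronal paralogue, had 32.3 FPKM (30.6 to 33.9) in live and 29.7 (28.4 to 31.0) in processed cells, a log2 ratio of -0.12 with overlapping bounds. RBFOX2, which binds UGCAUG next to alternative exons, had 43.3 FPKM (42.3 to 44.3) in live and 29.3 (28.7 to 29.9) in processed cells, 1.48-fold lower at a log2 ratio of -0.55. It was the largest difference among the members outside the HNRNP and SRSF symbols.

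ESRP1 and ESRP2, which drive the epithelial pattern of splicing, were both expressed. ESRP1 had 28.2 FPKM (27.2 to 29.2) in live and 29.9 (28.6 to 31.2) in processed cells, a log2 ratio of 0.08 with overlapping bounds. ESRP2 had 22.0 FPKM (21.0 to 23.0) in live and 18.4 (17.7 to 19.0) in processed cells, a log2 ratio of -0.25 with separate bounds. ESRP1 thus stood above ESRP2 in both libraries.

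Markers of the cell types in which these regulators act were present. All 6 epithelial markers were expressed, with EPCAM at 182 FPKM in live and 180 in processed cells, and sums of 3618 and 3390 FPKM. Their log2 ratios ran from -0.18 for KRT8 to 0.27 for CDH1. All 8 pancreatic endocrine markers were detected, INS at 98.3 and 121 FPKM and GCG at 135 and 131 FPKM, with sums of 2373 and 2369. Most of these sums was CHGA, at 1794 and 1741 FPKM, whose processed estimate had the status FAIL and bounds from 0 to 4712. The 6 neuronal markers summed to 172 and 152 FPKM, mostly TUBB3 at 149 and 129. Their median log2 ratio was 0.04, with 2 of 6 below 0, against 58.3% of all expressed genes. The sums were 586 and 549.8 FPKM for the 6 mesenchymal markers, mostly VIM at 514 and 485. The log2 ratios of these 6 ran from -1.28 for PDGFRB, at 4.26 and 1.17 FPKM, to 0.32 for ZEB1, at 1.11 and 1.64 FPKM. The 4 pluripotent markers summed to 152 and 123 FPKM, with LIN28A at 119 and 88.7 and NANOG at 1.27 and 7.34. In a bulk library fewer cells of a type and less RNA per cell cannot be told apart, and the part of any of these cell types in the values of the splicing regulators was not tested.

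Among the remaining hnRNP genes the log2 ratios ran from -0.28 to 0.19. HNRNPH3, a relative of HNRNPH1, had 145 FPKM (142 to 148) in live and 166 (162 to 170) in processed cells, a log2 ratio of 0.19, so that HNRNPH1 and HNRNPH3 were both higher while HNRNPH2 was lower, at 39.2 and 35.0 FPKM and a log2 ratio of -0.16. HNRNPU, which binds chromatin and RNA, had 208 FPKM (206 to 210) in live and 172 (170 to 173) in processed cells. Its log2 ratio was -0.28, and the sum with its short copy RP11-736L22.1 had a log2 ratio of 0.04. That copy spans 333 bases and the HNRNPU transcript 6867, and the sum weighs them by level and not by fragments. HNRNPAB had 140 and 117 FPKM in live and processed cells, a log2 ratio of -0.26. HNRNPUL2 was higher at 25.0 and 26.8 FPKM, a log2 ratio of 0.10 on separate bounds. HNRNPF, HNRNPL, HNRNPUL1, HNRNPM and HNRNPA0 were lower by the bounds with log2 ratios from -0.11 to -0.05, and HNRNPD and HNRNPR overlapped. Of the older-symbol relatives outside the rule, HNRPDL was higher at 329 and 342 FPKM and HNRPLL lower at 35.9 and 33.3 FPKM.

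Strand handling is not stated, so where a member and another gene overlap, their reads cannot always be told apart. Some of these overlaps are named as examples. SRRM2 overlaps TCEB2, which was lower in processed cells at 127 and 97.7 FPKM, whereas SRRM2 was higher. HNRNPUL2 shares its locus with RP11-831H9.16, listed at 21.2 and 8.95 FPKM. HNRNPH3 overlaps RUFY2, at 5.20 and 10.2 FPKM, and HNRNPU overlaps its antisense RNA HNRNPU-AS1, at 6.36 and 7.11 FPKM.

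Annotation that the rule did not use marks non-productive transcripts in most members. In GENCODE release 44, all 12 SR genes but 12 of 20 hnRNP genes (60.0%), and 34 of the 42 members (81.0%), have a transcript marked for nonsense-mediated decay, against 46.3% of 13574 expressed protein-coding genes and 52.5% of the well expressed ones. A retained-intron transcript is listed for 33 members (78.6%), for 14 hnRNP genes (70.0%), for 59.5% of the expressed protein-coding genes and for 68.8% of the well expressed ones. The members had a median of 13.5 annotated transcripts against 8 and 10 in those sets, which itself gives more chances to hold either kind. Gene-level FPKM does not separate these transcripts.

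Ratios were weakly related to transcript length. Across the 42 members, the log2 ratio and the log10 of transcript length had a Pearson correlation of -0.38 and a Spearman correlation of -0.28, and these were -0.11 and -0.12 over the 35 members with at most 10% of repeated coding windows. Over 6464 protein-coding genes that reached an FPKM of 10 in both libraries the values were -0.14 and -0.18. For GC content they were 0.19 and 0.18 over the members and 0.18 and 0.19 over those genes. These are descriptions across genes that share the same pair of libraries.

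Other splicing genes were described in the same way. Of 132 further splicing genes in 5 classes, 130 had a row and 129 were expressed, with a median log2 ratio of -0.11. By the bounds 26 were higher and 71 lower, against 28.1% and 43.7% of all expressed genes. With the added 1 FPKM none passed 2-fold, against 6.57% of all expressed genes on the higher and 6.19% on the lower side. At 1.5-fold 3 were higher and 14 lower, against 13.1% and 15.6%. Without the added 1 FPKM, 1 gene was more than 2-fold higher, RALYL, and 4 were lower, MBNL2, MBNL3, NOVA1 and PCBP3. The last 3 of these are named after their values were seen. The shares without it were 9.78% and 9.51% of expressed genes above 0 in both libraries. In the class listed as U1 and Sm proteins, SNRPE was lowest at 198 and 122 FPKM (log2 ratio -0.70) and SNRPF highest at 48.8 and 60.2 FPKM (0.30). The class median was -0.09, and the class as listed also held the U2 proteins SNRPB2 (-0.50) and SNRPA1 (-0.28). Among U2 and 3′ splice site factors the median was -0.06, with DDX46, a helicase of the U2 snRNP, at 32.9 and 22.6 FPKM (-0.53) and U2AF1L4 at 8.37 and 11.5 FPKM (0.41).

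Tri-snRNP and catalytic factors had a median of -0.11 and the widest span of the core classes, from PLRG1 at 42.6 and 25.4 FPKM (-0.72) to SNRNP40 at 28.6 and 47.6 FPKM (0.72). Of the 8 expressed SR protein kinases, which phosphorylate the arginine- and serine-rich domain, 7 had a log2 ratio below 0, against 58.3% of expressed genes. By the bounds 6 of the kinases were lower, against 43.7%, and the class median was -0.37. DYRK1A was lowest among them at 29.9 and 15.1 FPKM (-0.94), and SRPK2 was the kinase highest in ratio at 18.5 and 20.5 FPKM (0.14). The 67 other alternative splicing regulators had a median of -0.12 and ran from MBNL2 at 20.2 and 9.76 FPKM (-0.98) to RALYL at 1.47 and 3.08 FPKM (0.72). Whether any class differs from the members was not tested.

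**Figure D5:**
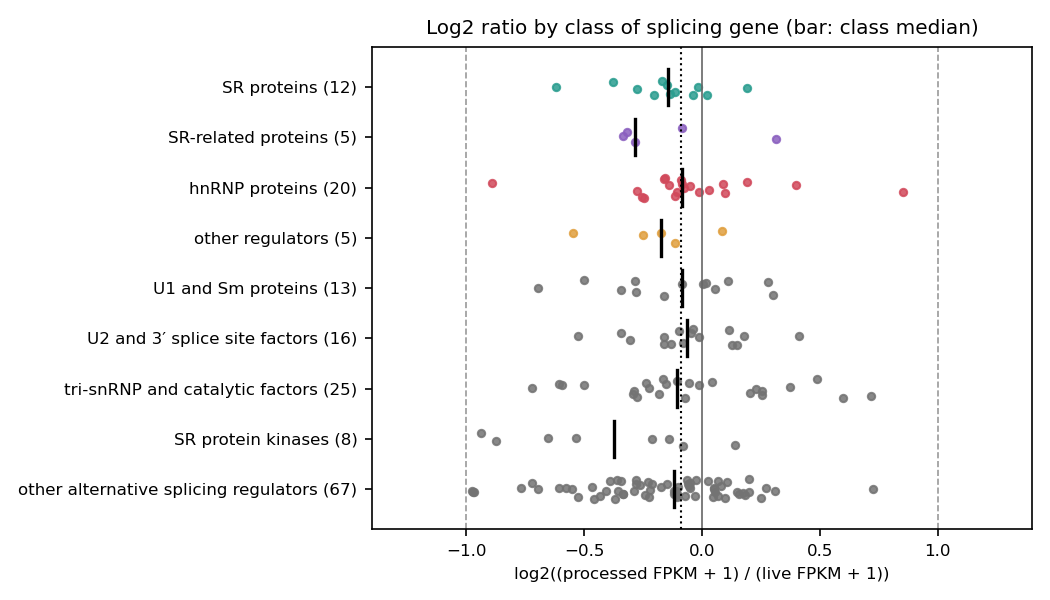
Log2 ratio of processed over live FPKM for each gene, by class, with the 4 families of members in colour and 5 classes of other splicing genes in grey, the number of genes in parentheses, black bars for class medians, a dotted line for the median of all genes and dashed lines at 2-fold. The medians lie between -0.06 for U2 and 3′ splice site factors and -0.37 for SR protein kinases, and with 1 FPKM added to each value no gene lies beyond 2-fold.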

How the data were processed

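RNA was poly-A selected and sequenced as paired reads of 80 nt, with 1 live and 1 processed library. The authors used STAR 2.2.0c, guided by GENCODE, to place the reads on GRCh37/hg19 and deposited an FPKM per gene with bounds and a status, which the submitters' processing notes credit to Cufflinks 2.0.2 and the study's methods to Cuffdiff. Counts, strand handling and what level the bounds stand for are not given in the sources used here, the depth of each library is not in the files (the study's methods give only a range over its samples), and the sources differ on samples per lane. FPKM is already scaled for length and library size, and multi-copy genes can exchange fragments.

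Genes were joined by identifier in Python 3.11.15 with pandas 2.3.3 and numpy 2.4.6. Log2 ratios used a pseudocount of 1 and a filter of FPKM 1 in at least one library. With 1 library per condition no test was possible, and counts are set beside the same counts over all genes. The ratio, the comparison of bounds and the choice of members were checked on simulated data with planted changes and no noise. The other steps were not checked in this way. Exact windows of 80 bases of each member's transcript were searched in both strands of GRCh37. Transcripts came from GENCODE 44 on GRCh37, which matched 41 members by identifier and 1, SRSF8, by symbol and position, and is later than the authors' release. Protein sequences were not used here.

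Genes named with full values are the 5 highest of the SR and of the hnRNP genes, the 6 largest rises and falls, the 10 regulators listed by symbol, any member at 0 or without status OK and, per other class, the largest rise and fall. Copies and overlapping genes, markers and the remaining members are named beside these. The members and lists were chosen with earlier results of these data known. Alternatives covered the pseudocount, the filter, the status, 2 scalings and a 1.5-fold threshold.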

Additional observations from a re-analysis of the deposited data

Results flagged for a closer look

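Of the 39 pseudogenes that the rule leaves out, 9 had an FPKM of at least 1 in a library and 13 were listed at 0 in both. A closer look is due to 4 whose processed level lay above their bounds in live cells. HNRNPA3P5 had 127 FPKM in processed cells and 62.5 in live cells. HNRNPKP1 had 7.68 FPKM against 5.29, HNRNPA1P4 had 2.54 against 0.822, and HNRNPA1P14 had 2.55 in processed cells and next to 0 in live cells. Another 4 were lower by the bounds, among them HNRNPA1P7 at 24.5 FPKM in live and 9.95 in processed cells and HNRNPKP2 at 9.05 and 3.84. Past 2-fold there were 2 in each direction. Of all expressed genes 28.1% were higher and 43.7% lower by the bounds, and 6.57% and 6.19% passed 2-fold. The reads behind these values were not analysed here.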

How the results depend on the processing

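The direction of the members' median held under every alternative run, but its size depends on scaling. Scaling by the median ratio moved the median over members to -0.01585 and over SR genes to -0.04257, turned the hnRNP median to 0.01491, and gave 14 members higher and 16 lower by the bounds. Under it 8 members changed sign, of which HNRNPA0 (0.04868), HNRNPL (0.0135), HNRNPM (0.02525) and HNRNPUL1 (0.01632) had been lower by the bounds, and 24 rather than 32 members stayed below 0. Scaling to the same sum changed the sign of 2 members, HNRNPD and SRSF11. A pseudocount of 0.1 or none put 1 member, HNRNPCL1, past 2-fold, with log2 ratios of 1.145 and 1.19. A 1.5-fold threshold gave 1 higher and 2 lower. Of the sums chosen after seeing the data, the one of HNRNPA3 with its same-named pseudogenes had a log2 ratio of 0.02992. The sums with every short copy had -0.1216 for HNRNPA1L2 and 0.03678 for HNRNPU. In the HNRNPA1L2 sum the copies held 91.9% of the live and 88.2% of the processed FPKM. With every short copy HNRNPCL1 stayed higher in processed cells, at 0.6822, in a sum where RP11-485G7.4, with 2 shared windows, held more than the gene. Such sums weigh genes of unequal length by level and not by fragments. The cause of these changes was not tested. No filter on low FPKM, the filter at 10 and the status filter changed no member's sign. With 1 library per condition no replicate could be left out. No paired analysis was possible because each group has 1 sample. Bounds of weak genes were the widest, at up to 27.7% of FPKM for SRRM4 in live cells.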
